A study of Sparassis latifolia with 15 samples.

Results

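In the cauliflower mushroom Sparassis latifolia, 45 of the 11118 genes found in both deposited count tables were higher in mycelium after light than in dark mycelium and also higher than in primordia. The members were chosen on the RNA-seq counts themselves, as CPM, the count of a gene divided by the total count of its library and multiplied by 1000000. A gene was a member when its mean in light mycelium was at least 1.5 times that in dark mycelium and at least 1.5 times that in primordia, when its lowest light library lay above its highest dark and its highest primordia library, when its mean in light was at least 3 CPM, and when its highest dark and its highest primordia library each reached 1 CPM. The 30 genes that the study listed, and GAPDH, were left out beforehand, and whether any of these 31 met the rule was not tested. Higher levels in light are therefore what the rule asked for and are given below as a description, with no test.

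All libraries came from strain SP-C grown on pine sawdust substrate. Dark mycelium (D) was kept in darkness for 28 d, light mycelium (L) was mycelium of D that then received white LED light (200 lx) for 1 h, and primordia (P) formed during 2 more weeks in which D mycelium was lit for 14 h daily. The labels give an age of 28 d for D, 30 d for L and 42 d for P, so the age of L in the labels and in the study's methods differ. Each group had 3 RNA-seq libraries, named here by group and replicate (D1 to P3), and the study calls them biological replicates without saying which cultivation bags they came from. P differed from L in age, in the length of exposure to light and in tissue at once, and these cannot be told apart. By the labels L also differed from D in age as well as in light, and there these 2 cannot be told apart either.

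Fungi sense blue light with the white collar complex, a photoreceptor that is also a transcription factor. In the mould Neurospora crassa, genes under its control rise soon after light is switched on, and many of them fall back while the light continues. Primordia, which S. latifolia forms in light, are the small tissue knots from which fruiting bodies grow. Mushroom-forming fungi coat aerial hyphae and fruiting bodies with hydrophobins, small proteins that repel water. The study sampled mycelium at a single time after light, so the course of a level after the light was switched on cannot be read from these libraries. The gene IDs of the tables carry no descriptions and 0 of them matched the reference annotation at hand, so the members are described by ID, with no role.

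The libraries held between 20798190 and 27706995 counts, spread over 10921 to 10991 detected genes. White collar 1 (Gglean010591) spanned 88.5 to 108 CPM among the D libraries, 213 to 434 among L and 233 to 1067 among P, so every L library lay above every D library. The hydrophobin SC4 (Gglean005727) spanned 34.3 to 218 CPM among the D libraries, 389 to 5540 among L and 1689 to 14984 among P. Every L library again lay above every D library, and the spread within groups was large, with D3, L2 and P2 the highest of their groups. White collar 1 was lowest among P in P2, at 233 CPM, within the range of L. Within groups the libraries spread along 1 main axis, which accounted for 54.4% of the variance of the deviations from the group means over the 9381 genes that met the level conditions. D3, L2 and P2 lay at the same end of it, at 0.21, 0.42 and 0.56, while D2, L1 and P3 lay at the other end, at -0.19, -0.34 and -0.42. Over the members alone the main axis held 35.3%, with L2 and P2 at 0.28 and 0.38 and D3 at 0.07, close to D1 at 0.06. Without these 3 libraries the rule chose 180 genes, of which 35 were among the 45 members. Fewer libraries make the separation easier to meet, and leaving out any single library gave 46 to 159 genes. No other set of 3 was left out, so the 180 cannot be credited to these libraries. The labels name no batch, and the part of this axis in the results below was not tested. In bulk samples such as these, fewer cells of a type and less RNA per cell cannot be told apart.

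The same thresholds chose more genes for some patterns and fewer for another. When the groups were exchanged, 149 genes were raised in D only and 171 in P only, and 2 were lowered in L only. A separate rule with the same fold and separation found 423 genes raised in both L and P over D. It set no condition between L and P, so it can share genes with the 45, as it does for Gglean010338. Of the 9381 genes at the level conditions, 231 (2.46%) had every L library above every D and P library, and 198 genes met all conditions but this separation. The thresholds cut through a continuous range. The members nearest the threshold had a smaller ratio of 1.51, 1.51 and 1.53, and the nearest genes outside it 1.49, 1.48 and 1.48. The scatter of the L over P ratio against the L over D ratio shows the members at the edge of a dense cloud, with Gglean003278 alone among them beyond 4 in both ratios. Other genes of the cloud had larger single ratios, up to 72.5 to D and 41.0 to P.

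**Figure D1:**
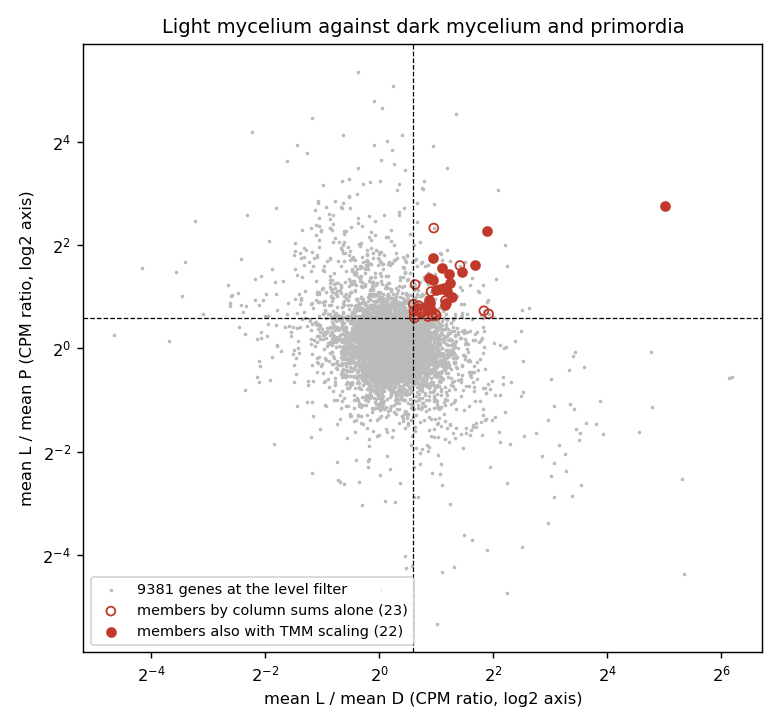
Ratio of mean CPM in light mycelium to primordia (vertical, log2 axis) against the ratio to dark mycelium (horizontal, log2 axis) for 9381 genes (grey) and the 45 members (red), with dashed lines at 1.5. Filled members, 22 in number, met the rule also after TMM scaling, and the member farthest to the right at 32.2 and 6.74 is Gglean003278.

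The members were raised by modest factors. The ratio of L to D had a median of 1.92 (range 1.51 to 32.2), and that of L to P a median of 1.83 (1.51 to 6.74). Only 11 of the 45 reached 2 in both ratios, 3 reached 3 and 1 reached 4. The lowest L library exceeded the highest D or P library by a median factor of 1.17. For 15 members this factor was below 1.1 and for 3 it was at least 1.5. The gap between groups was thus narrow for most members, although the rule required that one existed. The library that came closest to L was a P library for 25 members.

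The choice of scale mattered to which genes were members. The D libraries had the lowest scaling factors by the trimmed mean of M-values (TMM), 0.854 to 0.976 against 1.06 to 1.08 in L and 1.004 to 1.014 in P. On library totals the median gene stood 1.16 times higher in L than in D and 1.06 times higher than in P, a shift of 0.22 and 0.09 on the log2 scale against TMM, under which both medians were 0.997. With TMM, the median ratios of the members were 1.64 to D and 1.72 to P. All 45 remained above 1 in both, with minima of 1.30 and 1.41. However, 27 kept both ratios at 1.5 or more, 32 kept the separation of all libraries, and 22 met the whole rule. The rule on TMM-scaled values chose these 22 genes and no others, against 251 for D only, 204 for P only and 5 lowered in L only. With the size factors of DESeq2 the number was also 22. These 22 had a median ratio to D of 2.17 and to P of 2.24 on library totals, and 1.69 and 1.65 for the 23 that were lost.

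Together the members took a small part of each library. The 45 genes held 0.186%, 0.196% and 0.180% of the counts of D1 to D3. They held 0.299%, 0.443% and 0.323% of those of L1 to L3, and 0.185%, 0.175% and 0.167% of those of P1 to P3. L2 had the largest share, and D and P lay close together. Without the most abundant member the L shares were 0.214%, 0.299% and 0.216%, against 0.107% to 0.119% in D and 0.0971% to 0.106% in P. The CPM of the median member was 8.69, 11.2 and 11.5 in D, 18.4, 22.0 and 20.6 in L, whereas it was 9.28, 10.0 and 10.98 in P. These differences follow from the choice of genes.

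**Figure D2:**
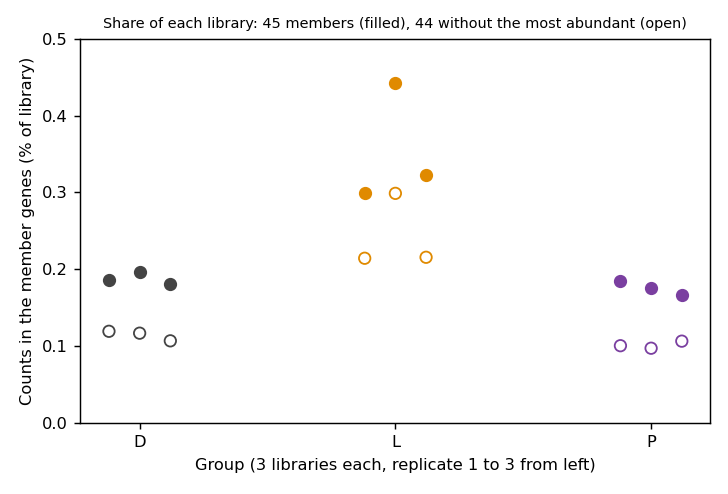
Share of all counts of a library (%) that fell in the 45 members (filled points) and in the 44 without the most abundant (open points), for the 3 libraries of each group. L2 had the highest share of the 45, 0.443%, and the D and P libraries lay between 0.167% and 0.196%.

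The members covered a wide range of levels, from 3.38 to 1121 CPM in mean L, with a median of 20.5. By level in L, 14 members had less than 10 CPM, 17 had 10.0 to 48.9 CPM, 7 had 58.2 to 93.7 CPM and 7 had 149 to 1121 CPM. The ratio to D had nearly the same median in these 4 classes, 1.93, 1.92, 1.91 and 1.94. The ratio to P was 1.83, 1.83, 1.65 and 2.93, with the highest value in the 7 most abundant genes. Of the 14 least abundant members 8 also met the rule on TMM-scaled values, followed by 9 of 17, 2 of 7 and 3 of 7. The smallest count was 10, for Gglean006238 in D1, and the median of the smallest count of a member was 130.

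The largest change belonged to Gglean003278. It had 4.75, 2.60 and 6.55 CPM in the D libraries, 74.5, 264 and 109 CPM in the L libraries and 5.29, 50.2 and 10.98 CPM in the P libraries. All 3 L libraries lay far above D, whereas P2 stood far above the other P libraries. The lowest L library was 1.48 times P2. The ratio was 32.2 to D and 6.74 to P, and both rested in part on single libraries. The log2 fold change of L over P was 2.65 with all libraries, 4.10 without P2 and 1.96 without L2, and that of L over D was 4.78 with all libraries and 4.09 without L2. The L libraries spread with a coefficient of variation (CV, the SD as a percentage of the mean) of 67.6%. This was the only member whose ratios both exceeded 4.

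Gglean006441 had the next largest changes in both ratios together. Its levels were 8.57, 11.5 and 13.9 CPM in the D libraries, 18.4, 71.8 and 35.5 CPM in the L libraries and 5.39, 5.08 and 15.4 CPM in the P libraries. L1 lay close to the highest P library, and L2 was the library that carried the mean, so that the ratios of 3.70 to D and 4.85 to P came with a CV of 65.0% in L. Its log2 fold change of L over P was 2.18 with all libraries, 2.91 without P3 and 1.55 without L2, and that of L over D was 1.67 and fell to 1.04 without L2. Gglean006368 had the second largest ratio to P, 5.02, and a ratio to D of 1.94. It reached 253, 152 and 178 CPM in the D libraries, 269, 562 and 301 CPM in the L libraries and 110, 61.2 and 54.1 CPM in the P libraries. P was therefore the low group for this gene, and L1 exceeded D1 by a factor of 1.06. Gglean006368 did not meet the rule on TMM-scaled values, where the separation of its libraries was lost. Its log2 fold change of L over D was 0.71 with all libraries and 0.32 without L2, and that of L over P was 2.23 and 1.83.

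The levels of Gglean010338 were ordered differently. It had 11.5, 19.3 and 15.4 CPM in the D libraries, 42.2, 87.8 and 44.6 CPM in the L libraries and 34.3, 36.3 and 39.4 CPM in the P libraries. The rise from D to L was 3.78-fold, but P remained near the 2 lower L libraries and the ratio to P was 1.59. It was not among the 22 that met the rule on TMM-scaled values, where its ratio to P was 1.49.

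Other members were less extreme and more even. Gglean000170 had 103, 64.6 and 105 CPM in the D libraries, 208, 205 and 174 CPM in the L libraries and 75.01, 45.9 and 79.5 CPM in the P libraries. Its lowest L library was 1.66 times its highest D or P library, the widest gap of the 45, and its L libraries had a CV of 9.39%. Gglean005132 was a low gene with the same behaviour, at 2.86, 2.24 and 3.59 CPM in the D libraries, 5.93, 6.77 and 6.28 CPM in the L libraries and 2.84, 2.75 and 2.83 CPM in the P libraries. Its gap was 1.65, and the ratios to D and P were 2.19 and 2.26. The third gene with a gap of at least 1.5 was Gglean011105, named after its values were seen, with 4.66, 6.71 and 5.31 CPM in the D libraries, 10.5, 10.2 and 14.4 CPM in the L libraries and 3.75, 5.75 and 6.30 CPM in the P libraries. All 3 met the rule also on TMM-scaled values.

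The most abundant member was Gglean002602. It had 665, 790 and 737 CPM in the D libraries, 848, 1441 and 1073 CPM in the L libraries and 847, 781 and 604 CPM in the P libraries. L1 exceeded P1 by a factor of 1.001, so that this member just met the separation, with ratios of 1.53 and 1.51. It did not meet the rule on TMM-scaled values, where the separation was lost. Its log2 fold change of L over D was 0.40 with all libraries and 0.19 without L2. Gglean003962 was the other member with a marked low level in P. It had 56.6, 41.9 and 37.9 CPM in the D libraries, 91.7, 95.2 and 75.4 CPM in the L libraries and 17.9, 23.2 and 37.1 CPM in the P libraries, and every P library lay below every D library.

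**Figure D3:**
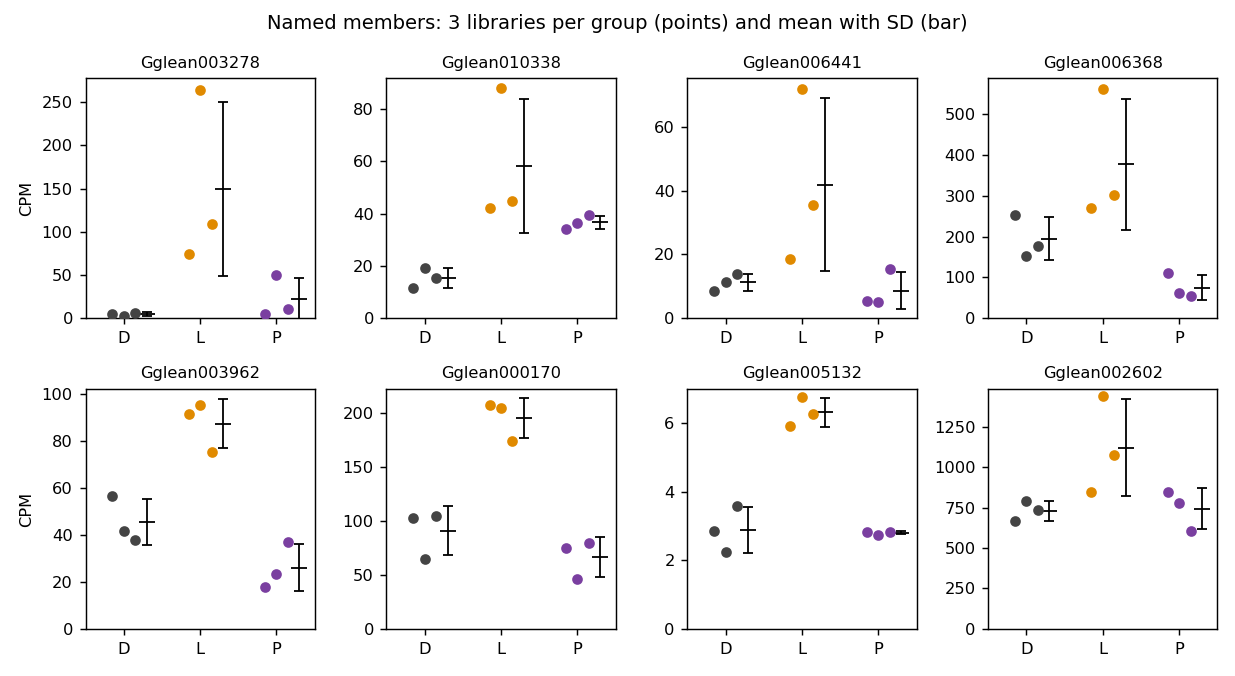
Levels in CPM (linear axes from 0, each panel with its own scale) of 8 members in 3 D, 3 L and 3 P libraries, with the mean and SD beside the points. L2 is the highest L library in 7 of the panels, and in Gglean000170 and Gglean005132 the 3 L libraries lie close together and apart from the rest.

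L2 was the highest L library for 26 of the 45 (57.8%), L1 for 10 (22.2%) and L3 for 9 (20%). Over all 9381 genes L2 was highest in 46.2%, L1 in 36.7% and L3 in 17.2%. L2 thus led most often among all genes too, and the difference in shares was not tested. In 10 members (22.2%, against 13.6% of all genes) L2 was at least 1.5 times the mean of L1 and L3, by up to 2.88 times. These 10 had a median ratio of 2.70 to D and 2.92 to P, and 7 of them met the rule on TMM-scaled values. Among all genes that were highest in L2, D3 was the highest D library in 65.2% and P2 the highest P library in 64.8%. Among the 26 members highest in L2 these shares were 38.5% and 30.8%. The rule requires D3 and P2 to lie below every L library, and its part in these shares was not tested. In 6 members the L libraries had a CV under 10%, from 1.65% to 9.81%, and L2 was the highest L library in 4 of these. The CV of the median member was 21.7% in D, 18.8% in L and 27.3% in P, beside 18.2%, 19.0% and 29.5% for the median gene.

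**Figure D4:**
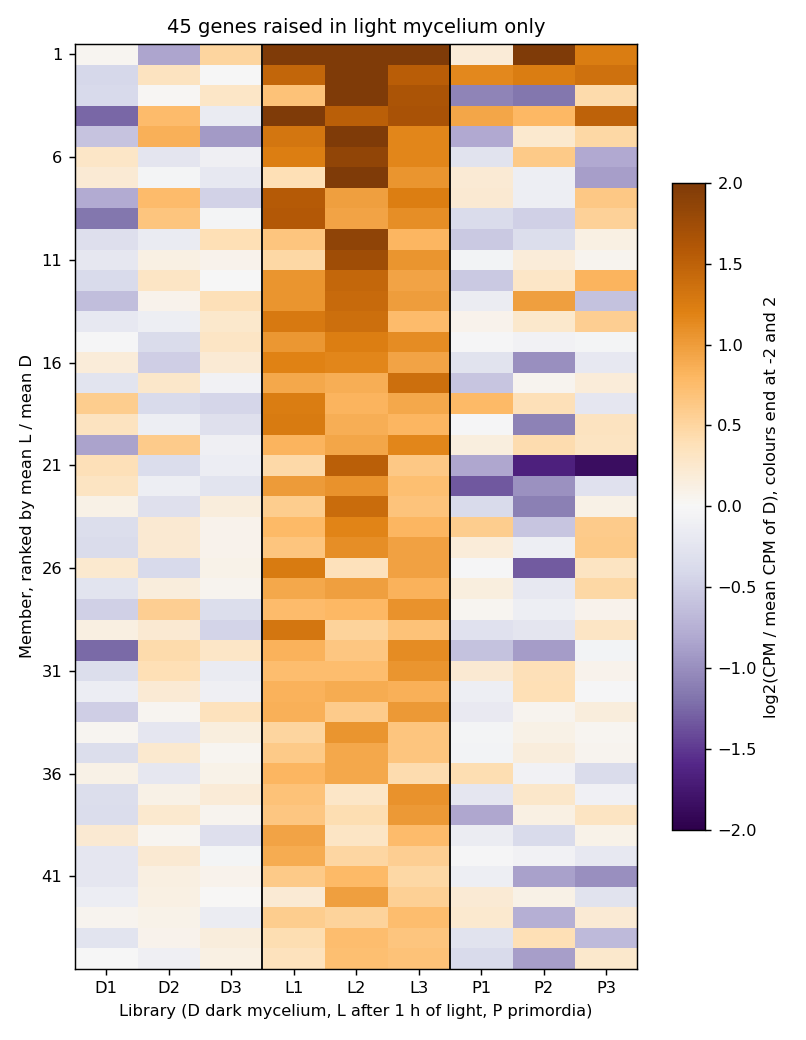
Level of each member in each library as log2 of its CPM over its mean CPM in D (colour, purple lower and orange higher, ending at -2 and 2), with members ranked by the ratio of L to D. The L columns are orange throughout, and L2 is the darkest in many of the upper rows. The D columns vary around white because levels are divided by the mean of D. The P columns differ by member, with all of P orange in Gglean010338 and purple in Gglean006368.

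The ratio of P to D was not part of the rule, but the rule holds both groups below L and so bounds how far P and D can differ. The shares of all genes are therefore given for scale, and nothing about the members is read from them. The ratio of P to D had a median of 1.001 (range 0.386 to 4.78), and 34 of the 45 (75.6%) lay between 0.8 and the inverse of 0.8, against 46.4% of all genes. Of the rest, 4 lay above and 7 below this range. On library totals P exceeded D in 23 members (51.1%), beside 61.4% of all genes. This count depends on the scale, since the median log2 fold change of the members with TMM was -0.09. Every P library lay above every D library in 2 members, and below in 2, where 14.8% and 10.7% of all genes did so. For the other 41 the groups overlapped.

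In the test of P vs. D with edgeR's quasi-likelihood method, 1 member was called higher and 0 were called lower. A call needed an adjusted p not above 0.05 together with a fold change over 1.2. The background was 1.33% of the genes tested for higher and 1.97% for lower. DESeq2 called 2 members higher, with 4.81% of genes called, and 1 lower, with 5.89%. At an unadjusted p under 0.05 edgeR had 2 members in each direction, and over the 10606 genes tested 1098 higher and 961 lower. With TMM scaling the median log2 fold change of the members was -0.09, beside 0.07 for all genes tested, and on library totals it was 0.0019. The called member was Gglean010338, with a log2 fold change of 1.15 (SE 0.23, edgeR adjusted p = 0.0420, higher in 3 of 3 P libraries than in every D library). Its adjusted p ranged from 0.0005 to 0.200 over the alternatives. The call was lost without D1 (0.200), D2 (0.0740), D3 (0.161), P1 (0.116) or P3 (0.0792), and in the fit of all 9 libraries (0.0637). For Gglean003278 the log2 fold change was 2.16 (SE 0.82, edgeR adjusted p = 0.209, range 0.0478 to 0.582), and without P2 the log2 fold change was 0.68. For Gglean006368 it was -1.50 (SE 0.38, edgeR adjusted p = 0.0835, range 0.00550 to 0.288) and for Gglean003962 -0.93 (SE 0.34, edgeR adjusted p = 0.191, range 0.0929 to 0.552). None of these 3 passed the threshold in edgeR, while DESeq2 called Gglean003278 higher (adjusted p = 0.0478) and Gglean006368 lower (adjusted p = 0.00550).

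The remaining members above this range were Gglean006238 and Gglean007372, named after their values were seen. Gglean006238 had 0.420, 1.70 and 0.897 CPM in the D libraries, 4.68, 2.89 and 3.18 CPM in the L libraries and 1.92, 1.73 and 2.83 CPM in the P libraries, a P to D ratio of 2.15 at very low levels. Gglean007372 had 11.6, 5.96 and 5.77 CPM in the D libraries, 18.4, 13.7 and 14.6 CPM in the L libraries and 13.3, 10.2 and 6.65 CPM in the P libraries, and its P and D libraries overlapped.

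The fits of the 2 contrasts that the rule used are given for their size alone. In L vs. D edgeR called 0 members higher, and 0% of the 10627 genes tested, while 30 of the 45 had an unadjusted p under 0.05, as had 683 genes in all. DESeq2 called 10 members, where 1.78% of all genes were called. In L vs. P edgeR called 0 members, with 0.0187% of genes called, and 33 members and 535 genes in all had an unadjusted p under 0.05. DESeq2 called 12, with 1.57% of genes called. The median log2 fold change of the members was 0.71 in L vs. D and 0.78 in L vs. P, beside 0.02 and -0.02 for all genes tested. Nothing is read from these counts, because the same values chose the members. Both contrasts share the L libraries, and L vs. D shares the D libraries with P vs. D.

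The level in a library that the choice did not use was also read. Each library was left out in turn, the genes were chosen with the other 8, and their level was read in the library left out. For an L library a gene held when it lay above every D and P library, and for a D or P library when it lay below every L library. The libraries it was set against were part of the choice, so the shares are in part fixed by it, and they are a description beside the shares of all genes. With L3 left out, 43 of 55 genes (78.2%) held, where 10.97% of all genes at the level conditions did. With L1 left out 50 of 159 (31.4%, all genes 14.9%) and with L2 left out 37 of 146 (25.3%, all genes 22.3%) held. Most genes chosen without L1 or without L2 did not reach that level in the library left out. On library totals the share with L2 left out was close to that of all genes. With TMM-scaled values it was 26.3%, against 12.8% of all genes.

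A D or P library left out had only to lie below the L libraries, so its share is not set against those of L. Of the genes chosen without D1, D2 and D3, 89.1%, 63.2% and 78.7% held, beside 53.1%, 38.3% and 38.8% of all genes. For P1, P2 and P3 the shares were 71.6%, 52.2% and 45.3%, beside 37.8%, 38.6% and 39.3%. P3 was the library in which genes chosen without it held least often among these 6. The number of genes chosen rose from 45 to 76 without D2, 90 without P2 and 95 without P3, and to 159 without L1 and 146 without L2. It was 46, 61, 67 and 55 without D1, D3, P1 and L3. Between 36 and 44 of the 45 members were among the genes chosen without a given library.

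**Figure D5:**
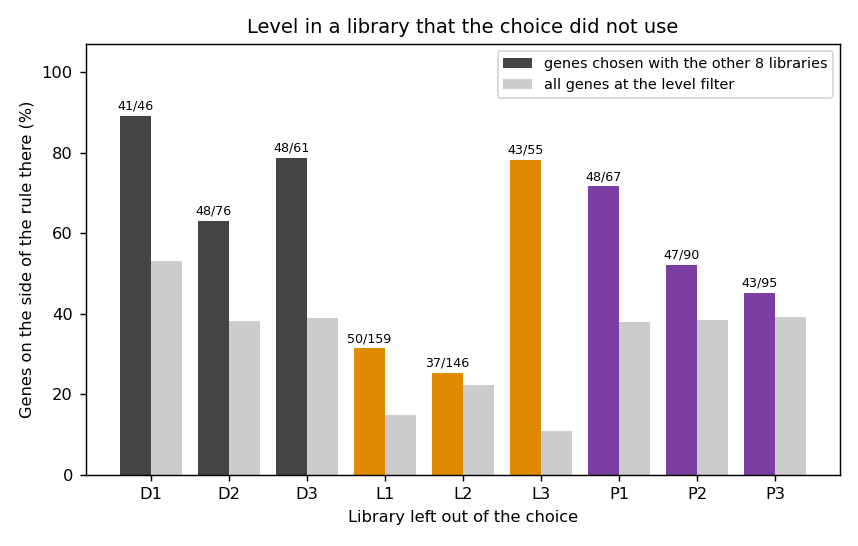
Share of genes (%) that held in the library left out, for the genes chosen with the other 8 libraries (dark grey D, orange L, purple P; number held over number chosen above the bars) and for all genes at the level conditions (light grey). On library totals, as drawn, the shares exceed the light bars most for L3 (78.2% against 10.97%) and least for L2 (25.3% against 22.3%).

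The members were nearly all scattered over the ID numbers of the annotation. 2 of the 45 (4.44%) had another member at the next ID number, against 0.707% of the other genes at the level conditions, and 4 (8.89%, against 1.48%) within 2 numbers. The pair with adjacent numbers was Gglean007969 and Gglean007970, and the other pair was Gglean010257 and Gglean010259, all named after their numbers were seen. Gglean007969 had 15.96, 16.3 and 13.9 CPM in the D libraries, 23.1, 22.0 and 25.6 CPM in the L libraries and 18.3, 9.14 and 17.9 CPM in the P libraries, while Gglean007970 had 1.85, 2.67 and 3.32 CPM in the D libraries, 4.72, 3.96 and 5.29 CPM in the L libraries and 2.31, 2.71 and 2.92 CPM in the P libraries. Both had their highest L level in L3. At the level conditions, 66 genes that were not members had an ID number next to a member. Their median ratio of L to D was 1.205 and that of L to P 1.05, beside the 1.16 and 1.06 of all genes. Positions of the genes in the genome were not used here.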

How the data were processed

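RNA-seq of D, L and P had 3 libraries per group. Per the paper and the labels, the authors used cutadapt for trimming, STAR for alignment to a S. latifolia genome and HTSeq 0.6.1 for counting per gene, and the deposited counts are raw. The strand setting was not stated there. The deposited tables also hold normalized values, fold changes and p-values of the authors, which were not used (12 per-sample columns of normalized values), and 43 genes in each table are absent from the other. The 6 ATAC-seq libraries and their 4 peak lists were not used, since no peak was tied to a member with the reference used here. The D libraries stand in both tables.

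CPM were computed on library totals. The tests used edgeR 4.0.16 (quasi-likelihood, TMM, filterByExpr) with Benjamini-Hochberg adjustment over all genes tested, on D and L, on D and P, and, for L vs. P, on all 9 libraries. SE was derived from the fold change and the F statistic. DESeq2 1.42.0 was the other tool. R 4.3.3 and Python 3.11.15 were used, with pandas 2.3.3, numpy 2.4.6 and matplotlib 3.10.9. The code was tested on simulated counts. The members, lists and thresholds were chosen with earlier results of these data known. Named members are the 2 largest by each ratio, by their smaller ratio, by level in L and by gap, and the highest and lowest in P vs. D, where size was used for the direction without a call, a case the rule did not settle. P-values measure the spread between these libraries only. Alternatives were other scalings, thresholds and filters, DESeq2, a fit of all libraries, a replicate block and each library left out.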

Additional observations from a re-analysis of the deposited data

How the results depend on the processing

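The median log2 fold change of the members in P vs. D changed sign, from -0.09 to 0.0019, with library totals in edgeR. No other result given here changed direction under the alternatives run. The number of members was 22 with TMM or DESeq2 size factors, 11 at 2-fold, 138 at the lower fold threshold tried, 198 without the separation of libraries, 46 to 159 with each library left out, and 180 without D3, L2 and P2 together, an alternative chosen after seeing the data. It was 31 with a mean in L of at least 10 CPM and 45 without a minimum in D and P. The members called were 10 in L vs. D and 12 in L vs. P by DESeq2, and 0 to 1 in L vs. D with each library left out. In P vs. D, 2 were called higher and 1 lower by DESeq2, 0 higher in the fit of all 9 libraries, 0 to 1 higher with each library left out and 0 without D3 and P2. The median log2 fold change with library totals was 0.94 in L vs. D and 0.87 in L vs. P, and in L vs. P it was 0.75 to 0.90 with each library left out. The share that held in D1 was 74.1% on TMM-scaled values (all genes 26.0%), and that in P2 was 70.6% at 2-fold (all genes 38.6%). On TMM-scaled values the share in L2 was 26.3% (all genes 12.8%) and that in P3 was 43.6% (all genes 34.7%). There P3, not L2, was the library closest to all genes. The causes were not tested.

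Same-numbered libraries deviated with correlations from -0.41 to 0.54 and different-numbered ones from -0.61 to 0.66, so the numbers were not taken to pair the samples. Between L and P the same-numbered values were 0.15, 0.54 and 0.38, and the different-numbered ones ran from -0.51 to 0.40. A pairing of L with P was not tested. With the replicate block 0 members were called higher in P vs. D, and the adjusted p of Gglean010338 was 0.154. Depth limits Gglean006238 most, with 10 counts in D1.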
